A study of Mus musculus with 18 samples.

Results

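The genes described here are 10 immune checkpoints other than PD-L1: the ligands Pdcd1lg2, Cd80, Cd86, Lgals9 and Cd276 and the receptors Pdcd1, Ctla4, Lag3, Havcr2 and Tigit. The rule that picks them uses gene names alone, out of the 41079 genes of an RNA sequencing table, and all 10 had a row in it. The RNA came from B16F10 tumors, a mouse melanoma line grown under the skin (right flank) of female mice of the C57BL/6 strain. Tumors were injected directly every 2 days from day 6, at about 50 mm3, and were taken 48 h after the last injection.

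There were 18 tumors, 3 in each of 6 groups. PBS was the vehicle. Free PS473 was a Pistol ribozyme, a small RNA enzyme, directed at the mRNA of PD-L1, and PS473@CPs was that ribozyme carried by cationic polymers. NKMOF-101-[Mn] was a manganese metal-organic framework with no RNA, M5@NKMOF-101-[Mn] was the framework loaded with M5, a catalytically inactive mutant ribozyme, and PS473@NKMOF-101-[Mn] was the framework loaded with the active one. All groups therefore shared the cell line, the host strain and the intratumoral route, and the titles of the last group spell the framework NKMOF-102-[Mn]. The sources do not say whether mice were pooled, so p-values measure only the spread between these samples.

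Checkpoint receptors sit on T cells and some other leukocytes and dampen their activation when a ligand on a tumor cell or an antigen-presenting cell binds them. PD-1 (Pdcd1) binds PD-L1 and PD-L2 (Pdcd1lg2). CTLA-4 competes with the costimulatory receptor CD28 for CD80 and CD86, LAG-3 binds MHC class II, TIGIT binds the nectin-like protein PVR, and TIM-3 (Havcr2) has galectin-9 (Lgals9) among its reported ligands. In a melanoma the receptors are carried mostly by infiltrating leukocytes, whereas B7-H3 (Cd276) is common on tumor and stromal cells.

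The values were FPKM, fragment counts scaled to gene length and to sequencing depth, so they could be compared between genes. The depth recovered from the steps between low values was 17212000 to 28401000 fragments per tumor. Markers of melanoma cells (8 of 8 detected) were high in all 18 tumors, with a mean log2(FPKM + 1) of 8.19 to 8.82. Ly6g, 1 of 7 neutrophil markers, was listed at 0 in all tumors, whereas the other 6 averaged 0.1 FPKM or more. The summed level of the neutrophil markers ran from 0.44 FPKM in a Free PS473 tumor to 462 FPKM in a PBS tumor. The tumors differed in markers of skin epithelium (14 genes): 8 tumors, from all 6 groups, had a skin epithelium score of 0.41 to 0.49, and the other 10 had scores of 1.29 to 7.30. In bulk RNA, fewer cells of a type and less RNA per cell cannot be told apart.

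PS473 was designed against a GU site in the mRNA of PD-L1, so the first question was how closely the other checkpoint mRNAs match that site. M5, the inactive mutant given to the tumors, is shown with the arms that pair with the target in capitals, and the 22-nucleotide target with the GU that is cut in capitals. By the study's text, the active PS473 given to the mice pairs over the same length, and it is not shown because the entries for it in the study's sequence tables differ in arm length.
M5: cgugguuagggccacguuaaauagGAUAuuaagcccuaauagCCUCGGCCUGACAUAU
PD-L1 target: atatgtcaggccgaggGTtatc
The target has 16 nucleotides before the GU and 4 after it, and lies in the coding sequence of Cd274, the gene for PD-L1, in exon 4 of 7 (chr19:29380366-29380387, plus strand, GRCm38).

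The nearest site in each checkpoint gene was searched in the protein-coding transcripts of GENCODE M21 (mouse build GRCm38), requiring the GU and counting mismatches at the other 20 positions. The site in Pdcd1lg2 is shown because it was the nearest of the 10, and that in the receptor Lag3 because it was among the next nearest, with mismatched bases in capitals.
Pdcd1lg2: aCCtgCcaggcTAGAggttatc
Lag3: CACtgtcaCgTTgGCggtCatc
The Pdcd1lg2 site had 7 mismatches, T2C, A3C, T6C, C12T, G13A, A14G and G15A, counted from 1 at the 5′ end of the target with the target's base first. It lies in the coding sequence, in exon 3 of 5 (chr19:29445981-29446002, plus strand). Of 21862 genes searched, 1.93% had a site with 7 mismatches or fewer. The nearest sites in Lag3 (coding, exon 5 of 8, chr6:124908381-124908402, minus strand) and Lgals9 had 9 mismatches, which 37.4% of genes reached, and those of the other 7 genes had 10 to 12, which 74.4% to 99% reached. Against the shorter arm of 10 nucleotides that a table of the study lists for PS473, Pdcd1lg2 was again nearest, with 4 mismatches, which 4.33% of genes reached. A site of this kind is a description of letters and not a measured cut.

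The checkpoint mRNAs spanned a wide range of levels. Lgals9 was the most abundant, with a mean over the 18 tumors of 69.4 FPKM ± 14.6 (SD, n = 18), followed by Cd276 at 13.9 FPKM ± 1.76 and Havcr2 at 1.88 FPKM ± 0.659. The other 7 had means under 1 FPKM: Lag3 at 0.977, Pdcd1 at 0.453, Cd86 at 0.354, Ctla4 at 0.281, Tigit at 0.268, Cd80 at 0.171 and Pdcd1lg2 at 0.121 FPKM. Lgals9 exceeded Cd276 and Cd276 exceeded Havcr2 with no overlap between their ranges. Havcr2 exceeded Lag3 and Lag3 exceeded Pdcd1 in 18 of 18 tumors although their ranges overlapped. Below Pdcd1 the neighbours did not separate, for Pdcd1 exceeded Cd86 in 10 of 18 tumors, Cd86 exceeded Ctla4 in 13 and Ctla4 exceeded Tigit in 10. PD-L1 itself (Cd274) had a mean of 17.3 FPKM ± 6.37, between Lgals9 and Cd276, and its group means ran from 12.7 FPKM in Free PS473 to 23.7 FPKM in M5@NKMOF-101-[Mn].

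All 10 genes passed the filter used for testing, a mean of at least 0.1 FPKM over all tumors. For the weakest of them the depth was the limit. The median number of fragments behind a value was 9.25 for Pdcd1lg2, 11 for Tigit, 15.5 for Ctla4 and 17.5 for Pdcd1, against 93 for Havcr2. Pdcd1 was listed at 0 in 1 tumor (Free PS473 replicate 2) and Pdcd1lg2 in 1 tumor (M5@NKMOF-101-[Mn] replicate 1). Free PS473 replicate 2 held the lowest value of 6 of the 10 genes: Pdcd1, Ctla4, Cd86, Havcr2, Tigit and Lgals9.

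**Figure D1:**
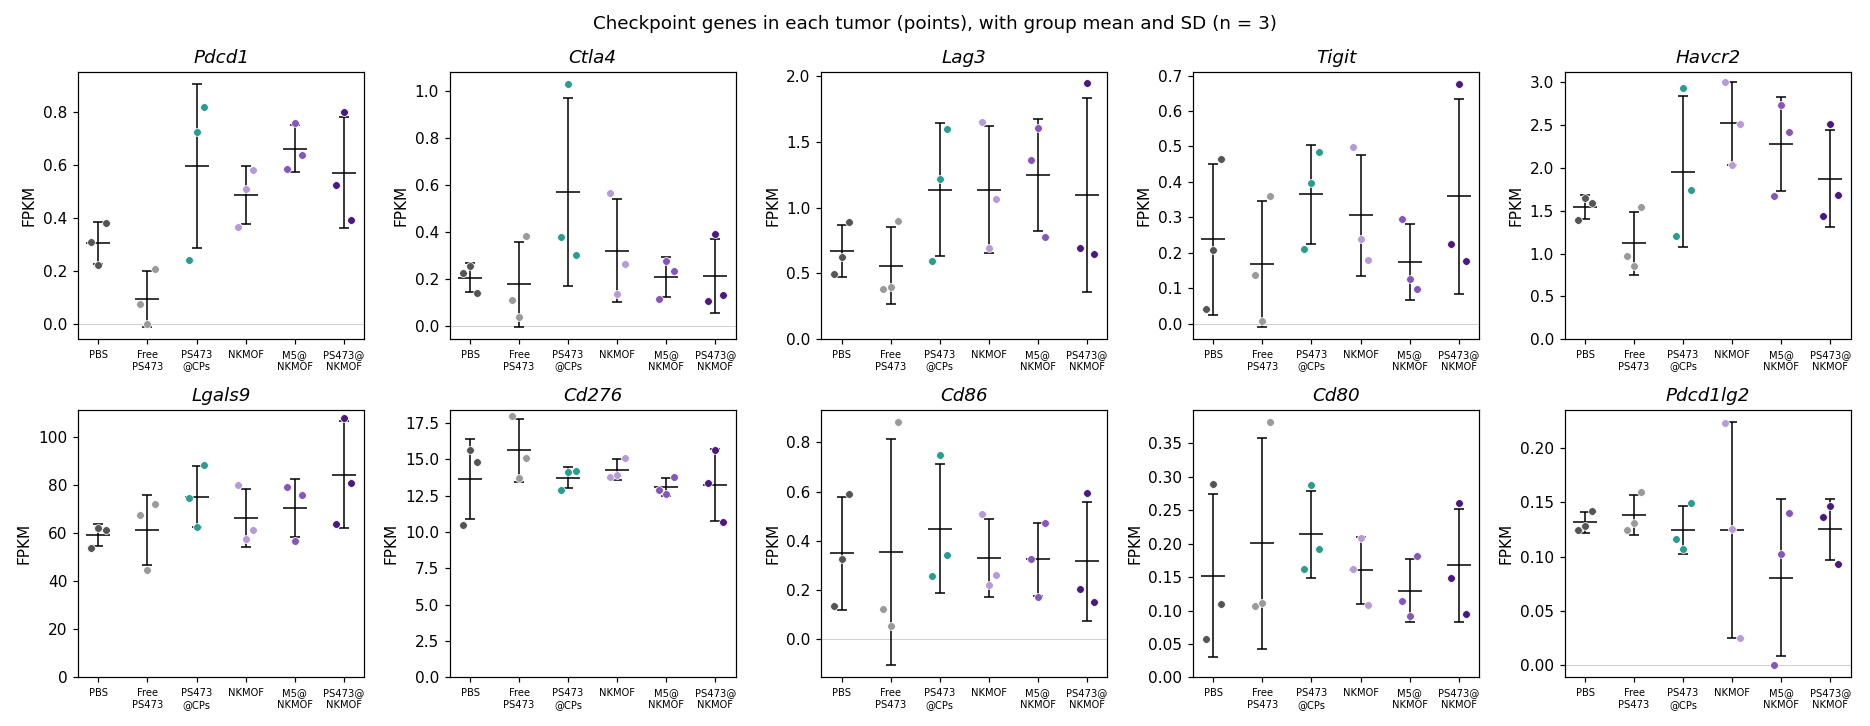
FPKM of each checkpoint gene (y axis, linear) in each tumor (points) of the 6 groups (x axis), with the group mean and SD of 3 tumors as a bar and whiskers. NKMOF in the axis labels stands for NKMOF-101-[Mn]. The Free PS473 tumors lie lowest for Pdcd1, and most other groups overlap.

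Across the 6 groups no checkpoint gene passed the test. With limma's moderated F test over 18312 genes, 0 of the 10 had an adjusted p under 0.05, and 0% of all genes did (adjusted p = 1 for each of the 10). Before adjustment, 2 of them had a p under 0.05 in the limma test, against 2.48% of all genes. These were Pdcd1 (unadjusted p = 0.00437, adjusted p = 1) and Havcr2 (unadjusted p = 0.0388, adjusted p = 1). Both passed the F test with array weights, which down-weight variable tumors, as did 4.65% of all genes. Group membership accounted for 69.5% of the spread of Pdcd1 and 55% of that of Havcr2 on the log2(FPKM + 1) scale. It accounted for 4.2% of that of Cd86 and 11.8% of that of Cd80. With 6 small groups such a share is well above none even where groups do not differ, and it was computed for the 10 genes only. In each of the comparisons between groups, 0 genes and 0 of the 10 had an adjusted p under 0.05 by limma (0% of genes called), and so it was by voom, limma's method for counts, on the recovered fragments. At an unadjusted p under 0.05, limma gave 1 of the 10 for PS473@NKMOF-101-[Mn] against PBS (2.58% of all genes) and against Free PS473 (4.93%), for NKMOF-101-[Mn] against PBS (2.11%) and for M5@NKMOF-101-[Mn] against PBS (2.23%). It gave 0 of the 10 for Free PS473 against PBS (2.47%), PS473@CPs against PBS (2.54%), the 3 groups given active ribozyme against the others (2.24%) and the effect of PS473 with the framework minus that without it (2.8%).

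Pdcd1 encodes PD-1, which T cells raise on activation and keep during chronic stimulation. Its values were 0.31, 0.225 and 0.382 FPKM in the PBS tumors and 0.0772, 0 and 0.208 FPKM in the Free PS473 tumors. The Free PS473 tumors were thus all below the PBS tumors, an arrangement that 2.13% of genes showed. In the framework groups the values were 0.368, 0.512 and 0.582 FPKM (framework alone), 0.586, 0.759 and 0.64 FPKM (with M5) and 0.525, 0.8 and 0.392 FPKM (with PS473). The PS473@CPs tumors, which had no framework, spread from 0.244 FPKM through 0.727 to 0.82 FPKM, the highest value of all 18.

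The PS473@NKMOF-101-[Mn] tumors had more Pdcd1 mRNA than the Free PS473 tumors, with means of 0.572 ± 0.208 and 0.095 FPKM ± 0.105 (SD, n = 3 each) and no overlap. All tumors of one group lay above all of the other for 2.31% of genes in that comparison. The log2 fold change was 0.52, with a 95% interval from 0.23 to 0.81, and did not pass after adjustment (limma, adjusted p = 0.789, unadjusted p = 0.00164). Fold changes here are on the log2(FPKM + 1) scale, which understates the change of a gene under 1 FPKM, and with a pseudocount of 0.1 in place of 1 this difference was 1.89. With array weights the difference was 0.55 with an adjusted p of 0.0132, as 1 of 358 genes called by that fit (1.96% of all genes), and the fit gave Free PS473 replicate 1 a weight of 7.76 against 0.258 to 2.2 for the other tumors. The score of interferon-stimulated genes (all 16 detected) ran from 2.34 to 3.32 in the Free PS473 tumors, 3.23 to 3.71 in the PBS tumors and 3.41 to 5.05 with PS473@NKMOF-101-[Mn], and its part in the Pdcd1 values was not tested.

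Against PBS, Pdcd1 was also higher in all M5@NKMOF-101-[Mn] tumors (log2 fold change 0.35, interval 0.06 to 0.64, limma unadjusted p = 0.0209, adjusted p = 1), as were 4.28% of genes. It was higher in all PS473@NKMOF-101-[Mn] tumors by a narrow gap, 0.392 against 0.382 FPKM, as were 2.42% of genes (log2 fold change 0.26, interval -0.03 to 0.55, limma adjusted p = 0.993). These comparisons share the same 3 PBS tumors.

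Havcr2 encodes TIM-3, found on exhausted T cells and on macrophages and dendritic cells. Its values were 1.39, 1.65 and 1.59 FPKM in PBS tumors and 0.967, 0.858 and 1.54 FPKM in Free PS473 tumors. With the framework alone they were 3.01, 2.04 and 2.51 FPKM. With M5@NKMOF-101-[Mn] they were 1.67, 2.74 and 2.42 FPKM, so that both groups lay above every PBS tumor. For M5@NKMOF-101-[Mn] the margin was 1.67 against 1.65 FPKM, and 4.28% of genes had all tumors higher in that comparison. The log2 fold change of Havcr2 there was 0.35 (interval -0.09 to 0.80, limma unadjusted p = 0.11). With PS473@NKMOF-101-[Mn] the values, 1.44, 2.51 and 1.68 FPKM, overlapped those of PBS, and the PS473@CPs tumors ranged from 1.2 to 2.93 FPKM.

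For Havcr2 the framework alone exceeded PBS by a log2 fold change of 0.46 (interval 0.02 to 0.91, limma unadjusted p = 0.0423, adjusted p = 1), and 4.19% of genes had all tumors higher in that comparison. The macrophage score, over 11 markers that were all detected, ran from 3.67 to 4.62 in the framework-alone tumors and from 2.90 to 3.83 in the PBS tumors, which overlap. The summed level of these markers was 225 to 402 FPKM and 123 to 210 FPKM. The part of macrophage content in the Havcr2 values was not tested.

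The 3 groups given the framework were then compared with the 3 not given it. The sides differ in more than the framework, since those without it include Free PS473 and PS473@CPs, so the contrast does not isolate the carrier. Mean Pdcd1 was 0.306 FPKM with PBS, 0.095 FPKM with Free PS473 and 0.597 FPKM with PS473@CPs. In the framework groups it was 0.487 FPKM (alone), 0.662 FPKM (with M5) and 0.572 FPKM (with PS473). For the framework alone against PBS the Pdcd1 difference was 0.19 (interval -0.10 to 0.47). Pdcd1 had a lowest, median and highest value of 0.368, 0.582 and 0.8 FPKM in the 9 tumors with the framework and of 0, 0.244 and 0.82 FPKM in the 9 without it. Its difference in log2(FPKM + 1) was 0.26, with an interval from 0.10 to 0.43 (limma unadjusted p = 0.00451, adjusted p = 0.887). Havcr2 ran from 1.44 through 2.42 to 3.01 FPKM with the framework and from 0.858 through 1.54 to 2.93 FPKM without it. The sets overlapped for both genes.

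The Havcr2 difference was 0.36, with an interval from 0.10 to 0.61 (limma unadjusted p = 0.0095, adjusted p = 0.887). At an unadjusted p under 0.05 the 2 receptors made up 2 of 10 genes against 4.7% of all genes. Lag3, the receptor for MHC class II, differed by 0.27 (interval -0.04 to 0.58), and Lgals9 by 0.17 (interval -0.10 to 0.43). The other 6, Tigit, Ctla4, Cd80, Cd86, Cd276 and Pdcd1lg2, lay between -0.07 and 0.03, and each interval included 0. All of these but Cd276 were under 1 FPKM, where the scale compresses differences. With voom the same 6 lay between -0.63 for Pdcd1lg2 and 0.44 for Tigit, and Lag3 differed by 0.57, again without a call. Of the 10 genes 5 were higher with the framework, against 43.7% of all genes, and the median difference was -0.002 against -0.014 over all genes tested.

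**Figure D2:**
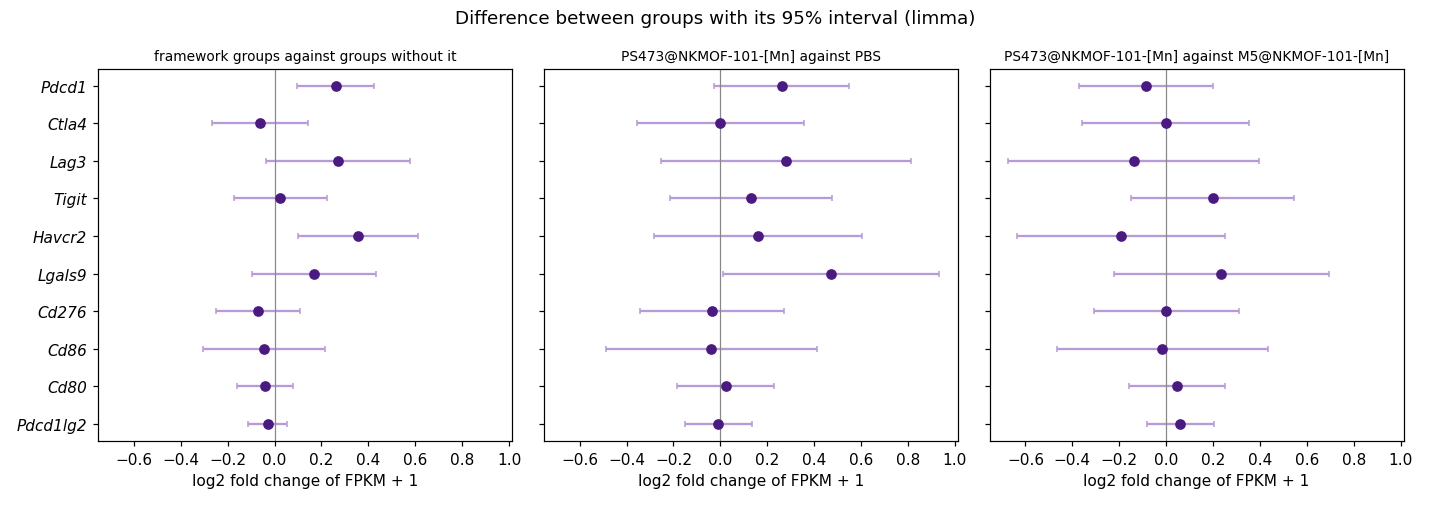
Log2 fold change of FPKM + 1 (x axis) of each checkpoint gene (y axis) in 3 comparisons, as points with 95% intervals from limma. Intervals exclude 0 for Pdcd1 and Havcr2 in the framework comparison and for Lgals9 against PBS, before adjustment for the number of genes, and for no gene against M5@NKMOF-101-[Mn].

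Lag3 varied widely within groups. Its values were 0.499, 0.627 and 0.89 FPKM with PBS, 0.385, 0.399 and 0.897 FPKM with Free PS473 and 0.594, 1.22 and 1.6 FPKM with PS473@CPs. In the framework groups they were 1.65, 0.696 and 1.07 FPKM (framework alone), 1.36, 1.61 and 0.781 FPKM (with M5) and 0.697, 1.95 and 0.647 FPKM (with PS473). Group means were 0.56 FPKM to 0.672 FPKM for Free PS473 and PBS and 1.1 FPKM to 1.25 FPKM for the other 4 groups, yet every one of those 4 had a tumor within the PBS range.

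Ctla4, the receptor that regulatory and activated T cells carry, was 0.224, 0.253 and 0.137 FPKM in PBS tumors and 0.378, 1.03 and 0.3 FPKM in PS473@CPs tumors. The PS473@CPs tumors were all higher, as for 2.09% of genes, with a log2 fold change of 0.35 (interval -0.001 to 0.71, limma adjusted p = 1). Without PS473@CPs replicate 2 the fold change was 0.15. That tumor also had the highest skin score, 7.30. In the other 4 groups Ctla4 ranged from 0.0349 FPKM in a Free PS473 tumor to 0.564 FPKM in an NKMOF-101-[Mn] tumor.

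Tigit ranged from 0.00827 FPKM in Free PS473 replicate 2 to 0.676 FPKM in PS473@NKMOF-101-[Mn] replicate 2. Every group's range overlapped that of PBS, 0.0424 to 0.465 FPKM. Groups accounted for 22.2% of its spread, a share that can arise where groups do not differ.

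Lgals9 encodes galectin-9, a secreted lectin. It was 53.9, 62 and 61.5 FPKM in PBS tumors and 64, 108 and 80.8 FPKM in PS473@NKMOF-101-[Mn] tumors, means of 59.1 ± 4.51 and 84.1 FPKM ± 22 (SD, n = 3 each). All PS473@NKMOF-101-[Mn] tumors were thus higher, as for 2.42% of genes, by a margin of 64 against 62 FPKM. The log2 fold change was 0.47, with an interval from 0.01 to 0.93 (limma unadjusted p = 0.0445, adjusted p = 0.993), but 0.28 without PS473@NKMOF-101-[Mn] replicate 2 and 0.27 with array weights. The PS473@CPs tumors, at 74.7, 62.7 and 88.3 FPKM, also lay above PBS, as for 2.09% of genes (log2 fold change 0.33, interval -0.13 to 0.79), whereas the other 3 groups overlapped the PBS range.

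The promoter of Lgals9 is shown because Lgals9 was the most abundant of the 10 and its relation to interferon-stimulated genes is described after it. It is the 250 bases before the gene's start in RefSeq (chr11:78984925-78985174, minus strand, GRCm38.p6), 5′ to 3′, with a match to the core of the interferon-stimulated response element in capitals.
Lgals9: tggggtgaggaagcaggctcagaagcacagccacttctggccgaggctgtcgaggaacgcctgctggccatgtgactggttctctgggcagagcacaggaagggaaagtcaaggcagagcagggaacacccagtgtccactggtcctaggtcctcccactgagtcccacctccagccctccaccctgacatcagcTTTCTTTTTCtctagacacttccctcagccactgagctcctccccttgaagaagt
The letters searched were GAAA, any 2 bases and GAAA, on both strands of the 250 bases, and the match starts at -55 from the gene's start. Of 32851 promoters, 2.98% hold one, and it was found in 1 of the 8 checkpoint genes that had a promoter entry (all but Cd86 and Lag3). The letters TTCNNNGAA, of interferon-gamma-activated sites, occurred in 7.02% of promoters and in none of the 8. The AP-1 letters TGANTCA occurred in 6.75% of promoters and in Cd80 and Havcr2. A match is a description of letters, and its absence says only that they are not in this window.

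Cd276, a B7 family ligand, had group means from 13.1 to 15.6 FPKM. Its coefficient of variation over the 18 tumors, 12.7%, was the lowest of the 10, followed by 21.1% for Lgals9. For genes with few fragments counting noise raises this figure, so it does not rank them by steadiness. Cd86 and Cd80, the ligands of CD28 and CTLA-4 on antigen-presenting cells, had group means of 0.317 to 0.449 FPKM and of 0.13 to 0.214 FPKM. Their spread lay within groups: in Free PS473 the 3 tumors had 0.123, 0.0541 and 0.882 FPKM of Cd86 and 0.107, 0.112 and 0.382 FPKM of Cd80. The third of these tumors was the highest of all 18 for both. Its skin score was 3.79. Cd86 ranged from 0.0541 FPKM through a median of 0.189 to 0.328 FPKM in the 8 tumors with a low skin score and from 0.15 FPKM through 0.491 to 0.882 FPKM in the other 10, and the part of skin in its values was not tested.

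Pdcd1lg2, the second ligand of PD-1 and the gene with the site nearest to the PS473 target, was 0.124, 0.128 and 0.142 FPKM with PBS, 0.124, 0.131 and 0.159 FPKM with Free PS473 and 0.116, 0.107 and 0.149 FPKM with PS473@CPs. With the framework it was 0.223, 0.125 and 0.0247 FPKM alone, 0, 0.102 and 0.14 FPKM with M5 and 0.136, 0.146 and 0.0931 FPKM with PS473. The groups given active ribozyme did not lie apart from the rest. The 3 groups with PS473 differed from the 3 without it by 0.02 in log2(FPKM + 1), with an interval from -0.06 to 0.11. This scale compresses changes of a gene at 0.121 FPKM, with a median of 9.25 fragments per tumor. A narrow interval here therefore does not mean that the mRNA was unchanged.

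The active and the inactive ribozyme in the same framework differ in catalysis by design, and their comparison was the closest control for cutting. No checkpoint gene had an unadjusted p under 0.05 between these groups, against 1.11% of all genes, and 5 of 10 were higher, against 46.8%. The point estimates ran from -0.19 for Havcr2 (interval -0.64 to 0.25) to 0.24 for Lgals9 (interval -0.22 to 0.70). Tigit differed by 0.20 (interval -0.15 to 0.54), Lag3 by -0.14 (interval -0.67 to 0.40) and Pdcd1 by -0.09 (interval -0.37 to 0.20). Pdcd1lg2 differed by 0.06 (interval -0.08 to 0.20), Cd80 by 0.05 (interval -0.16 to 0.25), Cd86 by -0.02 (interval -0.47 to 0.43), Ctla4 by -0.002 (interval -0.36 to 0.35) and Cd276 by 0.001 (interval -0.31 to 0.31). On a scale that compresses less, genes under 1 FPKM differed more: with voom Pdcd1lg2, listed at 0 in 1 of the M5 tumors, differed by 1.29 and Tigit by 0.92, again without a call. The 2 ribozymes are not shown to act alike. Likewise 0 of 10 had an unadjusted p under 0.05 when PS473@NKMOF-101-[Mn] was compared with PS473@CPs (2.58% of genes) or with the framework alone (2.75%).

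Most of the checkpoint genes went with marker lists of leukocytes across the tumors, and 5 of the 10 also went with that of fibroblasts. For each gene and each of 7 marker lists, the correlation over the 18 tumors was computed between log2(FPKM + 1) of the gene and the mean log2(FPKM + 1) of the list, whose genes include none of the 10. Of the 70 pairs, 32 had a Benjamini-Hochberg adjusted permutation p under 0.05. The skin score falls into 2 clusters and its 10 pairs are left out from here on, which leaves 28 of 60, and 15 of 60 without the 2 tumors farthest from the median of each score. The T cell list reached the threshold with 7 of the 10 genes, and 14.5% of all genes were at least as correlated with it as the weakest pair called (absolute r of 0.55). Dendritic cells reached it with 6 genes (18.8% of all genes), fibroblasts with 5 (18.7%), interferon-stimulated genes with 5 (5.21%), macrophages with 4 (11.9%) and melanoma cells with 1 (13.8%). Without the 2 farthest tumors these counts were 4 for T cells, 3 for dendritic cells, 5 for fibroblasts, 2 for interferon-stimulated genes (Pdcd1 and Lag3), 1 for macrophages (Havcr2) and 0 for melanoma cells. The shares of all genes were computed over the 18 tumors only, so the counts without 2 tumors cannot be set against a background.

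**Figure D3:**
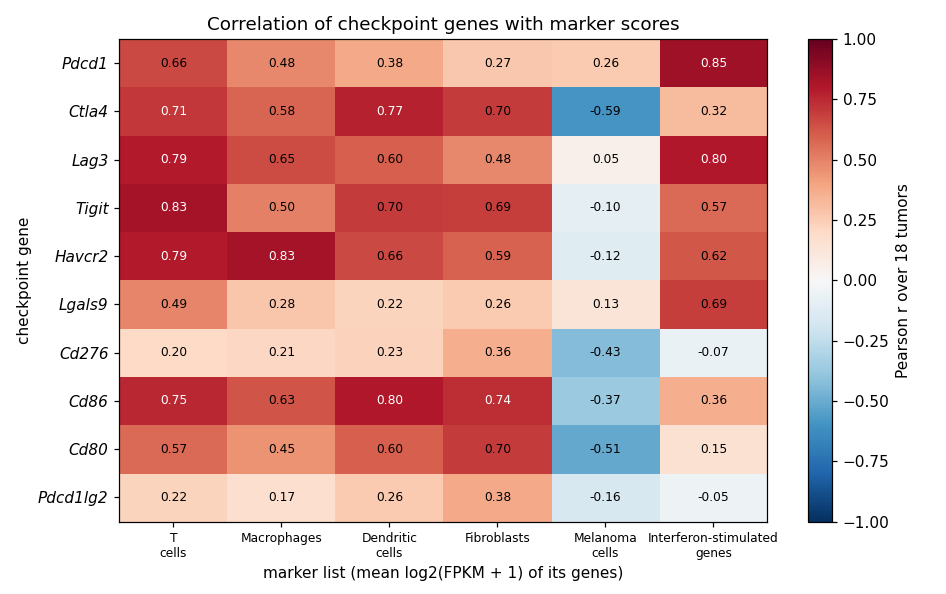
Pearson r over 18 tumors (color and number) between each checkpoint gene (y axis) and the mean log2(FPKM + 1) of each of 6 marker lists (x axis). The highest values are those of Pdcd1 with interferon-stimulated genes (0.85), Tigit with T cells (0.83) and Havcr2 with macrophages (0.83). Cd276 and Pdcd1lg2 lie between -0.43 and 0.38 with all 6.

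Pdcd1 went most closely with interferon-stimulated genes. Over the 18 tumors r was 0.85 (two-sided permutation p = 1e-05, the smallest that 100000 resamples give, adjusted p = 0.00035) and Spearman's rho 0.85 (p = 4e-05). Without the 2 tumors farthest from the median of the score r was 0.83, within groups, as deviations from the group means, it was 0.75, and it was 0.89 in the 8 tumors with a low skin score and 0.80 in the other 10. Tigit went with T cell markers, with r = 0.83 (permutation p = 1e-05, adjusted p = 0.00035), rho = 0.84 (p = 2e-05), 0.79 without 2 tumors and 0.85 within groups. These relations did not rest on the most extreme tumors. With fibroblasts Tigit had r = 0.69, and 0.82 without the 2 tumors farthest from the median of that score.

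Havcr2 had its highest r, 0.83, with macrophages (permutation p = 3e-05, adjusted p = 0.000525, rho = 0.76 with p = 0.00049), and r was 0.74 without 2 tumors and 0.83 within groups. In the 8 tumors with little skin it was 0.96 and in the other 10 it was 0.52. With T cells Havcr2 had r = 0.79 and with fibroblasts 0.59. Lag3 had r = 0.80 with interferon-stimulated genes and 0.79 with T cells, at adjusted p-values of 0.000467 and 0.0012, and within groups these were 0.77 and 0.80. Cd86 had r = 0.80 with dendritic cells (adjusted permutation p = 0.0012), which carry CD86 when mature. It had r = 0.75 with T cells and 0.74 with fibroblasts.

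Lgals9 passed with 1 list of 6, interferon-stimulated genes, at r = 0.69 (permutation p = 0.00188, adjusted p = 0.00774). Its rho was 0.43 (p = 0.0794), and without Free PS473 replicate 2 and PS473@NKMOF-101-[Mn] replicate 2 r was 0.28 (permutation p = 0.3), so the relation rested on those 2 tumors. Cd276 and Pdcd1lg2 passed with 0 of 6 lists. For Pdcd1lg2, with a median of 9.25 fragments per tumor, counting noise could hide a relation. The lists are themselves related, with r = 0.86 between T cells and dendritic cells, 0.92 between dendritic cells and fibroblasts and 0.62 between T cells and interferon-stimulated genes, so a gene's r with one list is not separate from its r with another.

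**Figure D4:**
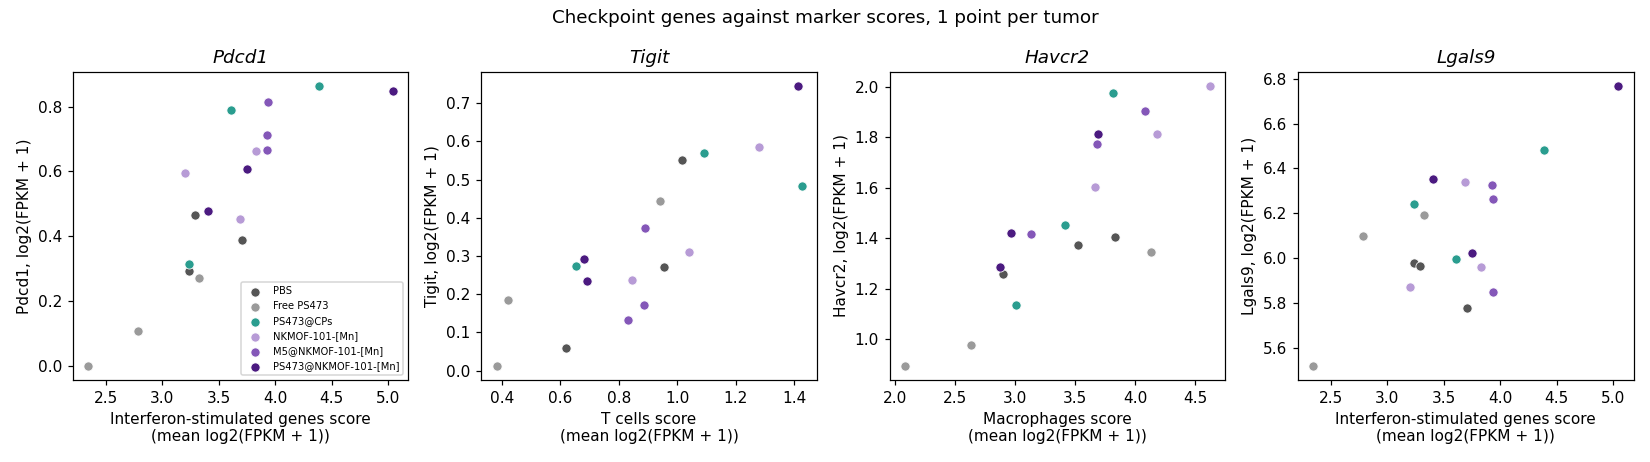
Log2(FPKM + 1) of Pdcd1, Tigit, Havcr2 and Lgals9 (y axes) against the mean log2(FPKM + 1) of a marker list (x axes), 1 point per tumor, colored by group. Pdcd1 (r = 0.85), Tigit (r = 0.83) and Havcr2 (r = 0.83) follow their lists across the range, whereas Lgals9 depends on its lowest and highest tumor.

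As a description, the genes most like some of the checkpoint genes over the 18 tumors were named among the 18312 tested. For Pdcd1 they were Gzmb, encoding the cytotoxic protease granzyme B (r = 0.92), Tapbp, which loads peptides on MHC class I (r = 0.92), and Igtp, an interferon-induced GTPase (r = 0.91). For Tigit they included Sh2d2a (r = 0.92) and Cd6 (r = 0.89), genes of T cells. Havcr2 was most like Fgl2 (r = 0.92), Rac2 (r = 0.91) and Irf8, a transcription factor of myeloid cells (r = 0.91). Lgals9 was most like Rnf135 (r = 0.83) and the interferon-stimulated Usp18 (r = 0.81) and Ifit3b (r = 0.80). Cd276 was most like Tnik (r = 0.90), Ncstn (r = 0.88) and Erbb3, a receptor of melanocytes (r = 0.87).

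Of the other genes of these pathways, 0 had an adjusted p under 0.05 in any comparison. Of 10 other ligands of the receptors, 9 were tested. All 9 had a positive difference between the framework groups and the rest, against 43.7% of all genes, with a median of 0.04 against -0.01. The 4 with an unadjusted p under 0.05, against 4.7% of all genes, were Cd74, H2-Aa, H2-Ab1 and H2-Eb1. Of these, H2-Eb1 is named here after its values were seen. H2-Aa, H2-Ab1 and H2-Eb1 are MHC class II genes, and Cd74 encodes a chaperone of class II molecules rather than a receptor ligand. These are not 4 separate results. Cd74 had a mean of 248 FPKM with the framework and 131 FPKM without it, a log2 fold change of 1.07 (interval 0.36 to 1.78, limma unadjusted p = 0.00584, adjusted p = 0.887). The other 3 differed by 0.77 to 0.82. Hmgb1, a ligand of TIM-3 among other receptors, differed by 0.01.

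In the framework comparison 43.7% of all genes were higher and 4.7% had an unadjusted p under 0.05. Of 9 other CD28 and B7 family members, 5 were tested, led by Cd274 and Icosl (2.78 FPKM). In that comparison 4 were higher and 0 had an unadjusted p under 0.05. Of 14 other inhibitory receptors and ligands, 11 were tested, led by Sirpa (19.9 FPKM) and Lilrb4a (5.93 FPKM), 9 were higher with the framework and 0 had an unadjusted p under 0.05. Of 10 genes of costimulatory TNF family pairs, 6 were tested, 3 were higher with the framework and 1 (Tnfrsf18, encoding GITR) was lower at an unadjusted p under 0.05, by -0.42 (interval -0.83 to -0.01, limma adjusted p = 0.887). Cd96 and Pvrig, receptors that share ligands with TIGIT, had means of 0.134 and 0.157 FPKM, and 0 of these 2 had an unadjusted p under 0.05.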

How the data were processed

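RNA from 18 B16F10 tumors, 3 per group, was sequenced. The authors enriched poly(A) RNA and deposited FPKM values for 41079 genes, with a gene length for each. The submitters' processing notes name GRCm39. The aligner, the counting tool and the annotation are not given in the sources used here. Every column of tumor values was used, and 0 pairs of tumors held identical values. Fragments were recovered from the steps between low values, of which 52.2% to 57.2% per tumor were whole within 0.02 fragments, so no count model was the main test.

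Values were transformed to log2(FPKM + 1), and limma 3.58.1 in R 4.3.3 was run on the 18312 genes whose mean reached 0.1 FPKM (6 group means, trend in the prior variance, no replicate block). Adjusted p-values are those of Benjamini and Hochberg over every gene tested. The procedure was tested on simulated data. A marker score is the mean log2(FPKM + 1) of a list. Correlations used two-sided permutation tests with 100000 resamples (Python 3.11.15, numpy 2.4.6). The genes, the lists and the tests were chosen with earlier results of these data known. Named genes are the 10 checkpoint genes, up to 4 per pathway list by mean FPKM, and up to 3 genes most like a checkpoint gene, some of which are not reported here. Alternatives were another pseudocount, other filters and scalings, array weights, a replicate block, a skin covariate, voom, no trend and leaving out each tumor. Sequences were taken from the study's supplement (ribozymes), GENCODE M21 and RefSeq promoters (GRCm38.p6), a build that differs from GRCm39, so FPKM values were matched by gene name only.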

Additional observations from a re-analysis of the deposited data

How the results depend on the processing

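Of 905 repeats of 33 fold changes under other settings, 876 kept direction and side of the threshold and 28 reversed. Under array weights 2 of the 10 genes passed the F test, Pdcd1 (limma adjusted p = 0.00807) and Havcr2 (adjusted p = 0.0242), with 851 genes in all against 0, and 1, Pdcd1, passed in PS473@NKMOF-101-[Mn] against Free PS473 (0.55), with 358 genes in all against 0. The cause was not tested. Every other alternative gave 0 of the 10 in the F test and each comparison, among them leaving out each tumor (0 to 0), a filter at a mean of 1 FPKM, which kept 3 of the 10, and no filter, under which 4 genes passed the F test. Replicate numbers did not pair the tumors throughout: deviations of same-numbered tumors correlated at -0.70 to 0.70. For numbers 1, 2 and 3 the median was 0.30, -0.14 and -0.02, and 10, 4 and 4 of 15 pairs exceeded 0.1. With the replicate block 0 of the 10 passed in each of 12 tests and the smallest adjusted p was 0.909. For active against inactive ribozyme in the framework, Cd276 was -0.043 with upper-quartile scaling and -0.006 with the skin covariate, and Ctla4 was 0.016 with quantile normalization. In the framework comparison, Cd80 was 0.003 and Tigit -0.027 with array weights, and Cd86 was 0.033 with the skin covariate and 0.064 with voom. Leaving out each tumor gave, for active against inactive ribozyme, -0.119 to 0.135 for Cd276, -0.010 to 0.092 for Cd80, -0.163 to 0.073 for Cd86, -0.106 to 0.058 for Ctla4 and -0.412 to 0.008 for Lag3, and in the framework comparison -0.098 to 0.042 for Cd86, -0.106 to 0.004 for Ctla4 and -0.028 to 0.068 for Tigit. Weak genes depended on the scale: the Pdcd1 difference between PS473@NKMOF-101-[Mn] and Free PS473 was 0.52 with a pseudocount of 1, 1.89 with 0.1 and 3.32 with voom, with no call under any of them. Of 70 correlations, 17 passed without the 2 tumors farthest from the median (fewer tumors per test) and 24 to 34 when each tumor was left out, the lowest without Free PS473 replicate 2. The share of all genes was not computed for these counts. The search with the shorter ribozyme arm was added after seeing the data.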
